A study of Mus musculus with 6 samples.

Results

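Plasmacytoid dendritic cells (pDC) of the mouse lung are described here from single-cell RNA sequencing of cells selected for CD45, the surface protein carried by white blood cells. A barcode, the tag of 1 droplet and usually of 1 cell, was taken as a pDC when it held at least 2 UMIs of Siglech and at least 2 UMIs of Ccr9, Cox6a2, Klk1 and Tcf4 summed. A UMI is 1 counted RNA molecule. Neutrophil-rich, macrophage, B cell and T cell droplets were kept out by limits on S100a8, S100a9, C1qa, C1qb, C1qc, Cd79a and Cd3e. The rule found 121 pDC among the 61736 barcodes that passed a quality filter.

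The mice were Nos1 knockout (KO) or wild type (WT, given as C65BL6 in the series text). They had received 10 mg/kg of lipopolysaccharide (LPS) or vehicle into the peritoneum 4 h before the lungs were taken. KO LPS gave 2 libraries with 30 and 20 pDC, WT LPS gave 2 libraries with 25 and 22 pDC, KO vehicle gave 1 library with 16 pDC, and WT vehicle gave 1 library with 8 pDC. No label states that the LPS replicates of a genotype were separate animals. The p-values below therefore measure spread among libraries that could be technical.

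Plasmacytoid dendritic cells are bone marrow-derived sentinels best known for making large amounts of type I interferon when endosomal Toll-like receptors meet viral or self nucleic acid. Their identity depends on the transcription factor TCF4, and in mice they carry the surface proteins SIGLECH and BST2. LPS, a cell wall component of Gram-negative bacteria, is sensed by TLR4, which mouse pDC carry at low levels. Type I interferon made by any cell of a tissue switches on a shared set of interferon-stimulated genes in its neighbours, pDC included.

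Genes that the rule did not use were set against the label first. Irf8, a transcription factor of dendritic cell development, had 2295 and 1706 CPM in KO LPS, 2433 and 2412 CPM in WT LPS, 2449.7 CPM in KO vehicle and 2578 CPM in WT vehicle. All other barcodes held 165 CPM under LPS and 208 CPM under vehicle. Conventional dendritic cells of type 2 (cDC2), chosen by their own marker rule, held 77.1 CPM under LPS and 106 CPM under vehicle. Other conventional dendritic cells were not compared, so these levels do not show that Irf8 separates pDC from every conventional dendritic cell. Bst2, a tetherin and pDC antibody target, had 3946 and 2607 CPM in KO LPS, 3472 and 4255 CPM in WT LPS, 3104 CPM in KO vehicle and 4639.5 CPM in WT vehicle. Levels of the transcription factors Spib (293 CPM under LPS and 203 CPM under vehicle) and Runx2 (287 CPM under LPS and 354 CPM under vehicle) were likewise well above those of the other barcodes, which held 12.0 CPM under LPS and 35.2 CPM under vehicle of Spib and 15.7 CPM under LPS and 38.9 CPM under vehicle of Runx2. These levels are CPM, UMIs per 1000000 UMIs of the class or library, and describe cells that the marker rule selected, so no test was made.

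The genes that stood furthest above the other barcodes in every library were Klk1b27, a kallikrein protease, Paqr5, a membrane progestin receptor, Lefty1, a secreted TGF-beta family antagonist, Cd300c, an activating surface receptor, and Smim5, a small membrane protein. Smim5 had 360.4 and 332 CPM in KO LPS, 413 and 499 CPM in WT LPS, 419 CPM in KO vehicle and 412 CPM in WT vehicle. The other barcodes held 1.05 CPM under LPS and 5.38 CPM under vehicle. Dntt, the terminal transferase of lymphoid progenitors, had 103 and 90.1 CPM in KO LPS, 101 and 189.9 CPM in WT LPS, 143 CPM in KO vehicle and 103 CPM in WT vehicle, against 0.632 CPM under LPS and 1.49 CPM under vehicle in other barcodes. Clec9a, best known as a receptor of type 1 conventional dendritic cells (cDC1), was also present at 110.3 and 101 CPM in KO LPS, 83.3 and 70.3 CPM in WT LPS, 134 CPM in KO vehicle and 103 CPM in WT vehicle. Of its 20 vehicle UMIs, 10 lay in 3 vehicle members at the edge of the rule while in LPS libraries 51 of 97 members held a UMI.

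Several members were at the edge of the rule or looked mixed. At the Siglech limit, 12 members had exactly 2 UMIs and 32 barcodes with 1 UMI met every other part of the rule. At the limit of the 4 other markers, 5 members had 2 UMIs and 4 barcodes (1 with 1 UMI and 3 with 0) fell just outside. The median Siglech count per member was 14 and 10 in KO LPS, 14 and 9.5 in WT LPS, 13 in KO vehicle and 4.5 in WT vehicle. Of the 121 members, 12 had at most 2 UMIs of Irf8, and 3, all from vehicle libraries, had at most 1 UMI of Bst2. These 3 held 18, 16 and 10 UMIs of Irf8, so Irf8 counts did not set them apart. Irf8 was not set against cDC1 above. No doublet caller was run. Instead, 16 members over 15000 UMIs and 36 with any UMI of a set of B cell, T cell, NK cell and endothelial marker genes, or over 5 UMIs of Lyz2, Chil3 and Retnlg summed, were marked as deep or mixed droplets. They came to 38 members, and results on the other 83 are given as those without deep or mixed droplets. Some members with at most 2 UMIs of Irf8 remain among these 83, all from LPS libraries. They held 6959 and 8361 UMIs of all genes in KO LPS and 7951 and 9235 in WT LPS.

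The libraries differed in ways that touch these results. The pDC of each library held 271912 and 177622 UMIs in KO LPS, 276232 and 142186 in WT LPS, 119199 in KO vehicle and 38797 in WT vehicle, so 1 UMI in WT vehicle is worth far more CPM than in any other library. Of these UMIs, members without deep or mixed marks held 142525 and 69316 in KO LPS and 109012 and 113013 in WT LPS. Under vehicle they held 45876 in KO and 16159 in WT. The part of a gene's UMIs in deep or mixed droplets, given below, is to be read against this. Neutrophil genes S100a8 and S100a9 made up 0.310%, 0.886%, 0.375% and 0.0830% of pDC UMIs in the LPS libraries, where they were 5.07% to 6.70% of all UMIs, and at most 0.00419% in the vehicle libraries. Sex marks were not balanced. Xist, the RNA of the inactive X chromosome, was found in 0 of 8 WT vehicle pDC, of which 6 held Y-linked UMIs, and in all 16 KO vehicle pDC. All WT LPS members with a sex mark (22 of 25 and 22 of 22) carried Xist alone. In KO LPS, 25 of 30 and 14 of 20 members carried Xist alone, 3 and 1 Y-linked RNA alone, and 1 and 2 both. The LPS contrast among WT libraries therefore cannot be told apart from the sex marks. Xist was itself called higher under LPS (log2 change 4.78 ± 0.78, edgeR adjusted p = 0.0231) and stood at -0.50 without the WT vehicle library. Pairs of libraries shared 20 to 35 barcode sequences, none of them a pDC in both.

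Numbers of pDC were low in all 6 libraries and higher under LPS on average. The share of barcodes that met the rule was 0.259% and 0.239% in KO LPS, 0.232% and 0.182% in WT LPS, 0.186% in KO vehicle and 0.0774% in WT vehicle. The exact 95% binomial intervals, which cover counting error only, ran from 0.114% to 0.370% over the LPS libraries, from 0.106% to 0.302% in KO vehicle and from 0.0334% to 0.152% in WT vehicle. WT vehicle was the lowest library, and KO vehicle lay just above the lower of the WT LPS libraries, so the treatments overlapped. The mean was 0.228% ± 0.0326 under LPS (SD, n = 4) and 0.132% ± 0.0769 under vehicle (SD, n = 2), a mean log2 difference of 0.91 (two-sided exact permutation test, p = 0.267, where the smallest possible value is 0.133). Without the WT vehicle library the difference was 0.28, and without the KO vehicle library it was 1.55.

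Neutrophil-rich barcodes were far more frequent under LPS. With them left out, 25570 of 42803 barcodes remained in the LPS libraries and 18136 of 18933 in the vehicle libraries. On this base the pDC share was 0.407% and 0.370% in KO LPS, 0.412% and 0.327% in WT LPS, 0.195% in KO vehicle and 0.0806% in WT vehicle. Every LPS library was above both vehicle libraries, with a log2 difference of 1.59 (exact permutation test, p = 0.133, the smallest value 4 against 2 libraries allow). All 4 LPS libraries also lay above both vehicle libraries relative to other dendritic cells. There were 37.5 and 37.7 pDC per 100 conventional dendritic cells in KO LPS, 36.2 and 24.4 in WT LPS, 16.8 in KO vehicle and 8.33 in WT vehicle. The conventional dendritic cells were themselves a smaller share of all barcodes under LPS. That share was 0.691% and 0.632% in KO LPS, 0.641% and 0.746% in WT LPS, 1.11% in KO vehicle and 0.929% in WT vehicle. The ratio therefore cannot separate more pDC from fewer conventional dendritic cells. Barcodes under 2000 UMIs were then left out and the rest thinned to 2000 UMIs, to remove depth. On this base the difference was 0.53 (exact permutation p = 0.533). It left out 2920 barcodes in WT vehicle and 563 to 960 in each other library, so the base shrank most in WT vehicle.

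**Figure D1:**
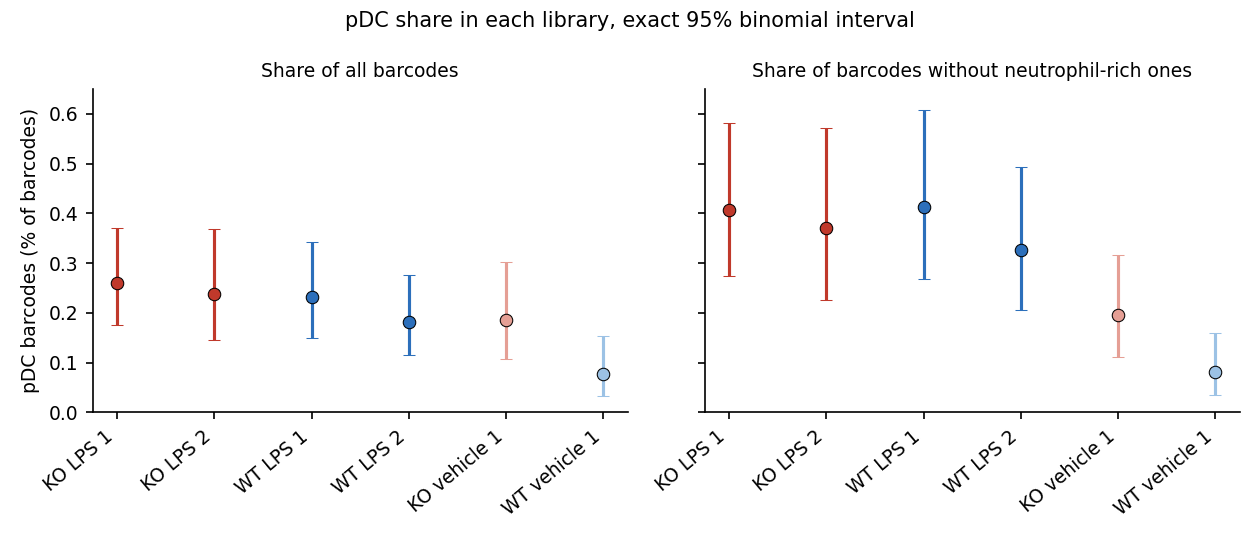
Share of pDC among all barcodes (left) and among barcodes with under 5% of S100a8 and S100a9 (right), in percent, 1 point per library with its exact 95% binomial interval. On the left KO vehicle, at 0.186%, lies above the lower WT LPS library, at 0.182%, and on the right all 4 LPS libraries lie above both vehicle libraries.

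Between genotypes the shares lay close together. Under LPS the KO libraries had 0.249% ± 0.0145 and the WT libraries 0.207% ± 0.0352 (SD, n = 2 each), a log2 difference of 0.27 (exact permutation p = 0.333, the smallest value 2 against 2 libraries allow). Both KO values lay above both WT values. On the base without neutrophil-rich barcodes the difference was 0.08 and the genotypes overlapped (exact permutation p = 1). Nos1 itself, the neuronal nitric oxide synthase gene, had 0 UMIs in pDC of any library. Over all barcodes it had 13 UMIs in the KO libraries and 3 in the WT libraries, too few to check the genotype.

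Interferon-stimulated genes rose in pDC under LPS. Gene counts were summed over the pDC of each library and tested with edgeR across 4271 genes, of which 173 were higher under LPS (4.05%) and 61 lower (1.43%) at an adjusted p under 0.05, 5.48% in either direction. Of the 38 interferon-stimulated list genes tested, 20 rose and 0 fell, among them sensors (Ifih1, Zbp1, Dhx58), antiviral enzymes (Oas3, Oasl1, Oasl2, Rsad2), translation blockers (Ifit1, Ifit2, Ifit3, Eif2ak2) and the transcription factor Irf7. Their median pooled ratio was 9.36-fold, with genes at 0 under vehicle set at their lower bound, against 0.986-fold over all tested genes. On the fitted log2 scale the list median was 5.92, or 3.64 with those genes at their bound, against 0.15 over all tested genes. No list gene was lower at an unadjusted p under 0.05 in edgeR or DESeq2.

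The calls rest on few vehicle cells. Without the KO vehicle library 5 list genes were called, without the WT vehicle library 10, and among KO libraries alone 10. Among the 83 members without deep or mixed droplets 17 of 28 tested list genes rose. DESeq2 called 28 of the list on all members.

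Irf7, the regulator that amplifies type I interferon, had 1449 and 1103 CPM in KO LPS, 1810.1 and 1357 CPM in WT LPS, 218 CPM in KO vehicle and 180.4 CPM in WT vehicle. All 4 LPS libraries lay above both vehicle libraries, which were close together. The pooled ratio was 7.08-fold (95% counting interval 5.01 to 10.3), and the fitted log2 change was 2.89 ± 0.29, edgeR adjusted p = 0.00742. Without deep or mixed droplets Irf7 had 1705 and 1385 CPM in KO LPS, 2027 and 1372 CPM in WT LPS, 414 CPM in KO vehicle and 371 CPM in WT vehicle, a log2 change of 2.21 ± 0.30, edgeR adjusted p = 2.6e-05. Isg15, a ubiquitin-like protein that is conjugated to other proteins, had 2210.3 and 1317 CPM in KO LPS, 2693 and 1786 CPM in WT LPS, 75.5 CPM in KO vehicle and 51.6 CPM in WT vehicle. Its pooled ratio was 30.3-fold (95% counting interval 16.9 to 60.9) and the groups lay far apart. Its log2 change was 5.03 ± 0.46, edgeR adjusted p = 0.00513.

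Ifitm3, a membrane protein that blocks virus entry, had 2869 and 2404 CPM in KO LPS, 3396 and 2068 CPM in WT LPS, 126 CPM in KO vehicle and 0 CPM in WT vehicle, and 13 of its 15 vehicle UMIs came from 1 member. With deep or mixed droplets left out it had 1986 and 3145 CPM in KO LPS, 2238 and 2292 CPM in WT LPS, 0 CPM in KO vehicle and 0 CPM in WT vehicle. The LPS libraries lay within a narrow band, and the vehicle libraries were at or near 0. The pooled ratio was 29.6-fold (95% counting interval 17.9 to 53.0). The fitted log2 change was 8.13 ± 0.58, edgeR adjusted p = 0.00348, and 4.41 among KO libraries alone. Rsad2 (viperin), which makes an antiviral nucleotide, had 849.5 and 681 CPM in KO LPS, 1683 and 338 CPM in WT LPS, 0 CPM in KO vehicle and 0 CPM in WT vehicle. It was at least 52.5-fold higher under LPS, against a floor of 3 UMIs over the vehicle libraries (19.0 CPM). Of its LPS UMIs 86.2% lay in deep or mixed droplets, and WT LPS replicate 2 was lowest. Isg20, an exonuclease, had 849.5 and 732 CPM in KO LPS, 822 and 535 CPM in WT LPS, 0 CPM in KO vehicle and 0 CPM in WT vehicle, at least 40.3-fold higher under LPS.

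**Figure D2:**
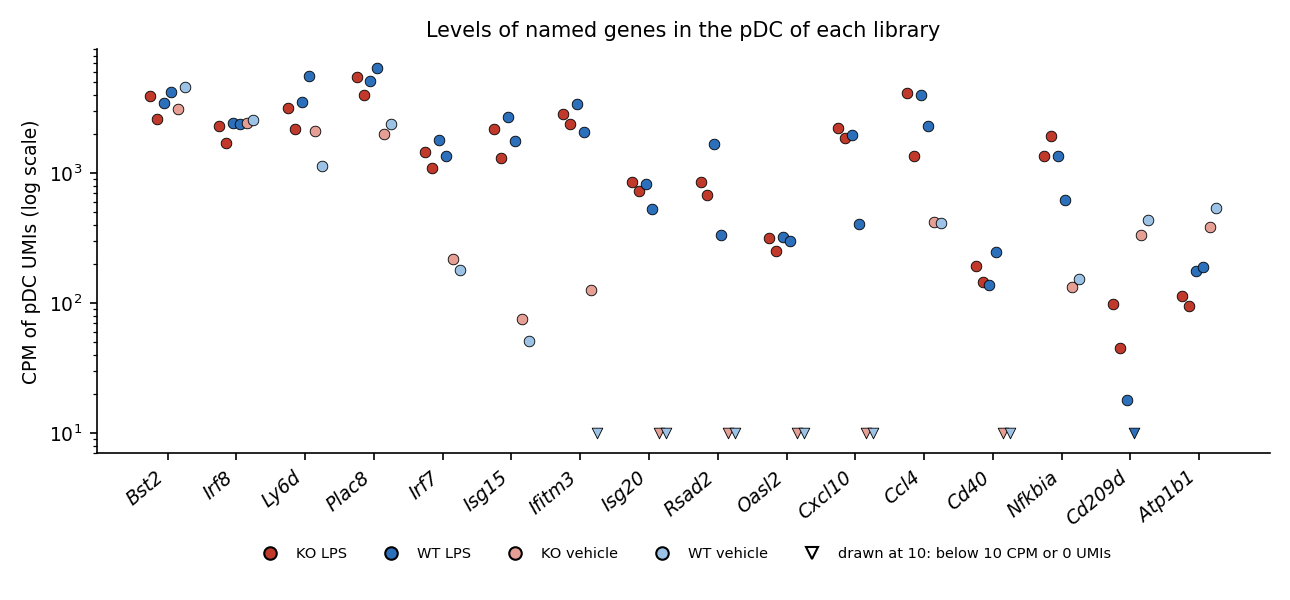
CPM of named genes in the summed pDC of each library on a log scale, 1 point per library, with values below 10 CPM drawn as triangles at 10. Bst2 and Irf8 overlap between treatments, the interferon-stimulated genes from Irf7 to Oasl2 are higher in all 4 LPS libraries, and Cd209d and Atp1b1 are lower in them.

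The difference was present in most members. The 40 list genes in the files together made up a median of 1.82% and 1.83% of a member's UMIs in KO LPS, 1.86% and 1.48% in WT LPS, 0.614% in KO vehicle and 0.680% in WT vehicle. Of 97 LPS members, 88 lay above the highest of the 24 vehicle members, which reached 1.01%. Without deep or mixed droplets, 67 of 70 LPS members did so. With members thinned to 2000 UMIs, Irf7 was detected in 86 of 97 LPS members and 7 of 24 vehicle members. B cells, which also respond to interferon, gave 53.1% of LPS B cells and 5.16% of vehicle B cells.

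**Figure D3:**
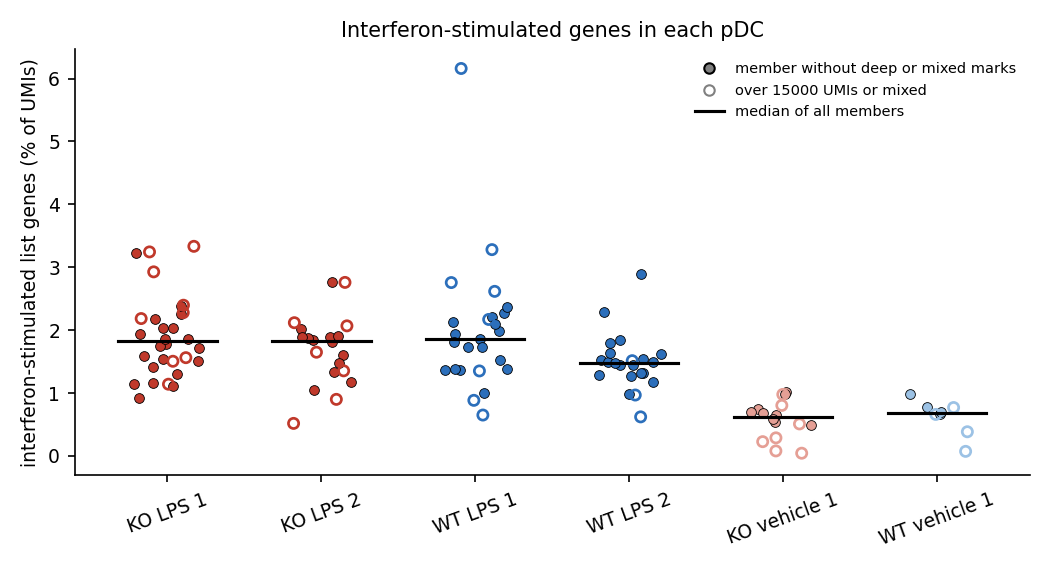
Interferon-stimulated list genes as a percent of the UMIs of each pDC, 1 point per member, by library, with open points for members over 15000 UMIs or mixed and bars at the median. Medians are 1.48% to 1.86% in the LPS libraries and 0.614% and 0.680% in the vehicle libraries, and 88 of 97 LPS members lie above every vehicle member.

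The promoters of the 4 called list genes with the highest LPS level that RefSeq covers are shown because interferon acts on such genes through factors that bind the interferon-stimulated response element. The shortest form, GAAA followed by any 2 bases and GAAA again, was searched. Each run gives 250 bases before the transcript start and 30 after it, on the minus strand of GRCm38.p6, with matches on either strand in capitals.
Ifitm3, chr7:141010715-141010994: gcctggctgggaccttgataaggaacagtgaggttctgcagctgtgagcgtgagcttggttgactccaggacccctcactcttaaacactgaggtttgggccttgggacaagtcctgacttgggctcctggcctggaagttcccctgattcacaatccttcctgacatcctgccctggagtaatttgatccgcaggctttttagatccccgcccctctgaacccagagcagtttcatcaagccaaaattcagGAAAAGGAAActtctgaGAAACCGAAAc
Isg15, chr4:156200789-156201068: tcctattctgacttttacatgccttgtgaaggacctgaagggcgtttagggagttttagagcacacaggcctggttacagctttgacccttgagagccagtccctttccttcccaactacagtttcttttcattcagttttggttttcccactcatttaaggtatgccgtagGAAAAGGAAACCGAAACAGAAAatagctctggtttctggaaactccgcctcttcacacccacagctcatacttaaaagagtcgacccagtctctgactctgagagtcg
Irf7, chr7:141266395-141266674: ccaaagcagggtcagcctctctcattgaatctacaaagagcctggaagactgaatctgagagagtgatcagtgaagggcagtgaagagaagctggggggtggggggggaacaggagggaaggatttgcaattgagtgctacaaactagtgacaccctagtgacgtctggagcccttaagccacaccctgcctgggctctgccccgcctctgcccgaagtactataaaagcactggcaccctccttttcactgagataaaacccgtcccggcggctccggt
Rsad2, chr12:26456423-26456702: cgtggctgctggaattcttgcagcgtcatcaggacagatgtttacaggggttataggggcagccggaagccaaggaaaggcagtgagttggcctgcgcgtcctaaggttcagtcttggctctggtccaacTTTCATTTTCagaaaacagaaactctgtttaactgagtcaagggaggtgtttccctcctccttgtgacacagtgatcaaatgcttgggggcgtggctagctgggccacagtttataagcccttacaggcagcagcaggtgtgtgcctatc

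Isg15 holds 3 overlapping matches, whose first bases lie 78, 72 and 66 bases before the start. Ifitm3 holds 2 matches, beginning at bases 3 and 20 after the start, and Rsad2 holds 1 on the opposite strand, 120 bases before it. Irf7 has no match in this window. In windows of 300 bases (250 before and 50 after the start) the letters occur in 9 of the 15 called list genes with an entry (60%), in 28 of 139 genes called higher under LPS (20.1%), in 163 of 3424 tested genes (4.76%) and in 1131 of all 32851 entries (3.44%). A match is a description of the sequence and was not tested as a binding site.

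Interferon itself was not detected in pDC. The 18 type I interferon genes had 0 UMIs in all 121 members, which allows a level of up to 11.0 and 16.9 CPM in KO LPS, 10.9 and 21.1 CPM in WT LPS, 25.2 CPM in KO vehicle and 77.3 CPM in WT vehicle. The other barcodes held 222 type I interferon UMIs in the LPS libraries (116 and 31 in KO, 39 and 36 in WT) and 11 in the vehicle libraries, mostly of Ifnb1 under LPS. Of all 21 interferon genes looked at, only Ifnl2 (1 UMI, WT LPS) and Ifng (5 UMIs in WT LPS and 1 in KO vehicle) had a UMI in a pDC.

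Of 15 tested genes of microbial sensing and signalling, Irf7 and Tlr2 rose (13.3%, against 4.05% of all tested genes) and 0 fell. Irf7 is also counted in the interferon-stimulated list. Without deep or mixed droplets 7 of the list were tested and 1 rose, which was Irf7 and not Tlr2. At an unadjusted p under 0.05 in edgeR 6 were higher and 0 lower, and DESeq2 called 2 higher and 0 lower. The list had a fitted median of 0.99 against 0.15 over all tested genes. Tlr7, the receptor of single-stranded RNA, had 180.2 and 124 CPM in KO LPS, 152 and 141 CPM in WT LPS, 58.7 CPM in KO vehicle and 103 CPM in WT vehicle, which did not pass the test (0.99 ± 0.39, edgeR adjusted p = 0.186). Unc93b1, the chaperone that carries endosomal receptors out of the ER, had 441 and 366 CPM in KO LPS, 405 and 401 CPM in WT LPS, 411 CPM in KO vehicle and 361 CPM in WT vehicle, and the treatments overlapped. Tlr9, the DNA receptor typical of pDC, had 6 UMIs in all, from KO LPS. Tlr4, the LPS receptor, had 8 UMIs, 7 of them in LPS libraries. Neither could be tested at this depth.

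Beyond the interferon list, genes chosen for large rises that were at least as high in pDC as in the other barcodes included secreted, surface and growth genes. A rise had to pass the test with every LPS library above both vehicle libraries, an order that 20.3% of all tested genes showed, and 78 genes met the full rule. The 15 named by fitted change include Oasl2, Ifi44, Ube2l6 and Iigp1, an interferon-inducible GTPase. Sct, the hormone secretin, had 250.1 and 203 CPM in KO LPS, 384 and 162 CPM in WT LPS, 0 CPM in KO vehicle and 0 CPM in WT vehicle, at least 14.1-fold higher under LPS. Of its LPS UMIs only 12.4% lay in deep or mixed droplets, and B cells held 0.795 CPM under LPS and 0.0453 CPM under vehicle. Sct was detected in 23 of 97 LPS members and 0 of 24 vehicle members at 2000 UMIs each, against 0.0735% of LPS B cells and 0% of vehicle B cells. Cd40, the receptor through which T cells license antigen-presenting cells, had 195 and 146 CPM in KO LPS, 138 and 246 CPM in WT LPS, 0 CPM in KO vehicle and 0 CPM in WT vehicle, at least 9.22-fold higher. Of 6 tested maturation genes Cd40 was the 1 that rose (16.7%, against 4.05% of all tested genes). Cd86, a costimulatory ligand, had 80.9 and 152 CPM in KO LPS, 61.5 and 63.3 CPM in WT LPS, 33.6 CPM in KO vehicle and 25.8 CPM in WT vehicle without passing the test (1.54 ± 0.64, edgeR adjusted p = 0.203).

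Ccnd2, a D-type cyclin, had 824 and 895 CPM in KO LPS, 1028 and 1273 CPM in WT LPS, 58.7 CPM in KO vehicle and 0 CPM in WT vehicle, a pooled ratio of 22.1-fold (95% counting interval 10.7 to 55.0) and a log2 change of 7.24 ± 0.47, edgeR adjusted p = 0.00348. Cd82, a tetraspanin, had 320.0 and 253 CPM in KO LPS, 344 and 577 CPM in WT LPS, 16.8 CPM in KO vehicle and 0 CPM in WT vehicle, with 2 vehicle UMIs, so its ratio of 28.1-fold (95% counting interval 7.72 to 233) is loosely bounded. Slc7a5, the large neutral amino acid transporter, had 180.2 and 84.4 CPM in KO LPS, 272 and 260.2 CPM in WT LPS, 16.8 CPM in KO vehicle and 0 CPM in WT vehicle. The LPS libraries of all 3 genes were well above the vehicle libraries. Apod, a lipocalin, had 177 and 118 CPM in KO LPS, 243 and 309 CPM in WT LPS, 0 CPM in KO vehicle and 25.8 CPM in WT vehicle, a ratio of 32.8-fold (95% counting interval 5.81 to 1301) on 1 vehicle UMI. Fkbp5, a chaperone induced by glucocorticoids, had 272 and 281 CPM in KO LPS, 152 and 281 CPM in WT LPS, 50.3 CPM in KO vehicle and 0 CPM in WT vehicle, a ratio of 6.25-fold (95% counting interval 2.82 to 17.2). Etv6, Fam241a, Tomm70a and Serpina3g complete the named rises. Of 9 tested glucocorticoid-response genes Fkbp5 and the phosphatase gene Dusp1 rose (22.2%, against 4.05% of all tested genes). Tsc22d3, another such gene, had 261 and 146 CPM in KO LPS, 141 and 183 CPM in WT LPS, 201 CPM in KO vehicle and 129 CPM in WT vehicle and did not pass (0.22 ± 0.41, edgeR adjusted p = 0.78). Of 8 tested cell cycle genes 0 passed in edgeR, 0 at an unadjusted p under 0.05 and 0 in DESeq2, and 13 of 121 members held any UMI of Mki67 or Top2a.

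Chemokines were high under LPS, and the part that lay in droplets marked as deep or mixed differed between them. It was 52.6% of the LPS UMIs for Ccl4, 73.5% for Ccl3 and 94.3% for Cxcl10. Of 19 tested cytokine and chemokine genes 3 rose (Ccl3, Ccl4 and Cxcl10), with a median pooled ratio of 3.52-fold against 0.986-fold over all tested genes, and 0 were called without the KO vehicle library or without the WT vehicle library. Those 3 are 15.8% of the genes tested in this list, against 4.05% of all tested genes. Ccl4, an inflammatory chemokine, had 4126 and 1351 CPM in KO LPS, 3993 and 2314 CPM in WT LPS, 419 CPM in KO vehicle and 412 CPM in WT vehicle. Every LPS library was above the vehicle libraries, and KO LPS replicate 2 was lowest of the 4. The ratio was 7.71-fold (95% counting interval 6.04 to 9.99) and the log2 change was 2.87 ± 0.56, edgeR adjusted p = 0.0374. It was 2.21 ± 0.45, edgeR adjusted p = 0.00204 without deep or mixed droplets, where 60 of 70 LPS members held a UMI of Ccl4.

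Cxcl10, an interferon-induced attractant of T cells, had 2229 and 1869 CPM in KO LPS, 1955 and 408 CPM in WT LPS, 0 CPM in KO vehicle and 0 CPM in WT vehicle, at least 93.2-fold higher under LPS. Deep or mixed droplets held 94.3% of its LPS UMIs, and without them the levels were 168 and 462 CPM in KO LPS, 119 and 159 CPM in WT LPS, 0 CPM in KO vehicle and 0 CPM in WT vehicle. Cxcl2 and Il1b, products typical of myeloid cells, had 97.5% and 97.2% of their LPS UMIs in such droplets, and without these Cxcl2 had 49.1 and 14.4 CPM in KO LPS, 165 and 97.3 CPM in WT LPS, 21.8 CPM in KO vehicle and 0 CPM in WT vehicle. Neither was called. Markers of myeloid cells were also higher under LPS in the summed pDC. The 10 neutrophil markers, none at 0, summed to 3292 and 3963 CPM in KO LPS, 3352 and 1083 CPM in WT LPS, 92.3 CPM in KO vehicle and 0 CPM in WT vehicle, and 1 of the 6 tested rose. The 8 monocyte markers, none at 0, summed to 4770 and 6249 CPM in KO LPS, 5383 and 3552 CPM in WT LPS, 2827 CPM in KO vehicle and 567 CPM in WT vehicle, and 2 of the 7 tested rose. The markers called are 16.7% of the neutrophil and 28.6% of the monocyte markers tested, against 4.05% of all tested genes. Without deep or mixed droplets the neutrophil sum was 173 to 422 CPM in the LPS libraries, 43.6 CPM in KO vehicle and 0 CPM in WT vehicle. With a free RNA profile subtracted, scaled in each library by its S100a8 and S100a9, 16 of the interferon-stimulated list genes were still called, with Irf7 at 2.90 and Isg15 at 4.91 (edgeR adjusted p = 0.0080 and 0.0089). Of the 3 chemokines Cxcl10 kept its call, and Ccl3 and Ccl4 did not (edgeR adjusted p = 0.063 and 0.0581). The scale was 0.175 in KO LPS replicate 2, 0.0128 in WT LPS replicate 2 and 0 in WT vehicle. In KO LPS replicate 2, mixed members of 26923 and 4928 UMIs had 4.88% and 4.73% of S100a8 and S100a9, against 0.886% over its pDC. The scale thus also counts mixed droplets, so this run cannot separate free RNA from them.

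The feedback genes of NF-kB, the transcription factor downstream of Toll-like receptors, had 7 of 17 tested members higher (Nfkbia, Nfkbib, Nfkbiz, Birc3, Bcl3, Traf1 and Zc3h12a), 41.2% against 4.05% of all tested genes. DESeq2 called 4. Their median pooled ratio was 6.83-fold, against 0.986-fold over all tested genes. Nfkbia, the inhibitor that holds NF-kB in the cytoplasm, had 1353 and 1931 CPM in KO LPS, 1350.3 and 619 CPM in WT LPS, 134 CPM in KO vehicle and 155 CPM in WT vehicle, a ratio of 9.70-fold (95% counting interval 6.37 to 15.5). WT LPS replicate 2 was the lowest LPS library and still above both vehicle libraries. The log2 change was 3.19 ± 0.47, edgeR adjusted p = 0.0179, and 2.15 ± 0.40, edgeR adjusted p = 0.000915 without deep or mixed droplets, where it was the 1 list gene of 9 tested that rose. With either vehicle library left out, 0 list genes were called. Socs3, a feedback inhibitor of cytokine receptors, had 291 and 422 CPM in KO LPS, 558 and 295 CPM in WT LPS, 41.9 CPM in KO vehicle and 0 CPM in WT vehicle, a ratio of 12.7-fold (95% counting interval 5.41 to 39.5) (6.14 ± 0.92, edgeR adjusted p = 0.0188).

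Of 31 tested pDC identity genes outside the rule, 4 rose under LPS (Ly6d, Plac8, Grn and Ifi27l2a) and 2 fell (Atp1b1 and Fcrla). These are 12.9% and 6.45%, against 4.05% and 1.43% of all tested genes. The list had a fitted median of 0.17 against 0.15 over all tested genes. Plac8 had 5549.6 and 4019.8 CPM in KO LPS, 5166 and 6463 CPM in WT LPS, 2013 CPM in KO vehicle and 2397 CPM in WT vehicle. All LPS libraries were above both vehicle libraries, with a ratio of 2.50-fold (95% counting interval 2.23 to 2.80) and a log2 change of 1.31 ± 0.19, edgeR adjusted p = 0.0179. Ly6d, a surface protein of the lymphoid lineage, had 3207 and 2179 CPM in KO LPS, 3537 and 5605 CPM in WT LPS, 2106 CPM in KO vehicle and 1134 CPM in WT vehicle, where KO LPS replicate 2 lay just above KO vehicle, and the log2 change was 1.23 ± 0.26, edgeR adjusted p = 0.0465. Ifi27l2a, also interferon-inducible, had 1556 and 1453 CPM in KO LPS, 2932 and 3024 CPM in WT LPS, 503 CPM in KO vehicle and 361 CPM in WT vehicle, a log2 change of 2.36 ± 0.18, edgeR adjusted p = 0.00348. Among KO libraries alone Ly6d was at 0.38 and Grn at 0.60, against 1.27 for Plac8 and 1.60 for Ifi27l2a. With 3 UMIs of each marker sum required, Ly6d and Grn lost their call (edgeR adjusted p = 0.100 and 0.0601). Plac8 and Ifi27l2a kept theirs. Atp1b1, a sodium pump subunit, had 114 and 95.7 CPM in KO LPS, 177 and 189.9 CPM in WT LPS, 386 CPM in KO vehicle and 541 CPM in WT vehicle, a ratio of 0.337 (95% counting interval 0.248 to 0.461) and a log2 change of -1.66 ± 0.24, edgeR adjusted p = 0.0176. The LPS libraries lay below both vehicle libraries. Of the rule's own markers, given as description, Siglech had 1725 and 1126 CPM in KO LPS, 1448 and 1575 CPM in WT LPS, 1737 CPM in KO vehicle and 1392 CPM in WT vehicle, and Ccr9, a gut-homing chemokine receptor, had 1287 and 895 CPM in KO LPS, 891 and 1456 CPM in WT LPS, 411 CPM in KO vehicle and 516 CPM in WT vehicle.

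Of 26 tested genes of secretion and the endoplasmic reticulum (ER), Hspa5, Herpud1 and Manf rose (11.5%, against 4.05% of all tested genes), with a fitted median of 0.18 against 0.15 over all tested genes. Herpud1, part of the ER degradation complex, had 449 and 372 CPM in KO LPS, 442 and 654 CPM in WT LPS, 151 CPM in KO vehicle and 77.3 CPM in WT vehicle, a ratio of 3.49-fold (95% counting interval 2.25 to 5.71) and a log2 change of 2.17 ± 0.35, edgeR adjusted p = 0.0225. Its LPS libraries lay above both vehicle libraries. Xbp1, the transcription factor of the unfolded protein response, had 427 and 405 CPM in KO LPS, 333 and 436 CPM in WT LPS, 252 CPM in KO vehicle and 155 CPM in WT vehicle and did not pass (1.06 ± 0.27, edgeR adjusted p = 0.074). Of 12 tested trafficking genes 0 passed in edgeR, with 4 at an unadjusted p under 0.05, and DESeq2 called 1. Ccr7, the lymph node homing receptor, had 8 UMIs in all. Of 10 tested survival genes the kinase gene Pim1 rose (2.75 ± 0.45, edgeR adjusted p = 0.0235), which is 10.0% against 4.05% of all tested genes.

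Of 19 tested antigen presentation genes, 3 rose and 4 fell (15.8% and 21.1%, against 4.05% and 1.43% of all tested genes). On all members the class I genes B2m (1.11 ± 0.24, edgeR adjusted p = 0.0467) and H2-D1 (0.86 ± 0.18, edgeR adjusted p = 0.0433) and Tapbp, which loads peptide onto class I (1.79 ± 0.24, edgeR adjusted p = 0.0131), rose. The class II genes H2-Ab1, H2-Aa, H2-DMa and H2-DMb1 fell. Without deep or mixed droplets 5 rose and 0 fell. B2m had 3394 and 2044 CPM in KO LPS, 3906 and 3826 CPM in WT LPS, 1753 CPM in KO vehicle and 1366 CPM in WT vehicle, and every LPS library was above both vehicle libraries. Its call was lost with 3 UMIs of each marker sum required (edgeR adjusted p = 0.0554), with free RNA subtracted (edgeR adjusted p = 0.0595) and among KO libraries alone (edgeR adjusted p = 0.354).

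Most vehicle UMIs of H2-Ab1 and Cst3 lay in 3 vehicle members at the edge of the rule. H2-Ab1 had 827 and 935 CPM in KO LPS, 311 and 731 CPM in WT LPS, 2248 CPM in KO vehicle and 2088 CPM in WT vehicle, a log2 change of -1.65 ± 0.31, edgeR adjusted p = 0.0332. Cst3, the protease inhibitor cystatin C, abundant in cDC1, had 1372 and 2207 CPM in KO LPS, 804 and 1034 CPM in WT LPS, 9219.9 CPM in KO vehicle and 7449 CPM in WT vehicle, a log2 change of -2.65 ± 0.21, edgeR adjusted p = 0.00348. Each of the 3 members with at most 1 Bst2 UMI (2 in KO vehicle and 1 in WT vehicle) had 2 Siglech UMIs, 2 UMIs of the other markers and UMIs of Xcr1, the cDC1 chemokine receptor. They held all 15 Xcr1 UMIs, 78.2% of the vehicle H2-Ab1 UMIs and 83.4% of the vehicle Cst3 UMIs, and 3.53% to 4.81% of their UMIs were class II genes. Of the pDC UMIs of all genes they held 18150 and 11200 of 119199 in KO vehicle and 8163 of 38797 in WT vehicle. Without deep or mixed droplets, which removes them, H2-Ab1 had 1151 and 418 CPM in KO LPS, 422 and 814 CPM in WT LPS, 698 CPM in KO vehicle and 743 CPM in WT vehicle (0.16 ± 0.38, edgeR adjusted p = 0.844) and Cst3 a log2 change of 0.05 ± 0.23, edgeR adjusted p = 0.961. With 3 UMIs of each marker sum required in place of 2, 0 antigen presentation genes fell and H2-Ab1 had a log2 change of 0.32 (edgeR adjusted p = 0.673). H2-DMa, a chaperone of class II peptide loading, kept much of its change there, at -1.24 ± 0.26 (edgeR adjusted p = 0.0605), against -1.89 ± 0.26, edgeR adjusted p = 0.0149 on all members. It was detected in 25 of 97 LPS members and 16 of 24 vehicle members at 2000 UMIs each, and its change without deep or mixed droplets was -0.62 ± 0.34, edgeR adjusted p = 0.289. H2-DMb1 was at -0.55 under the 3-UMI rule (edgeR adjusted p = 0.582). Of 5 tested conventional dendritic cell markers Xcr1 and Cd209a fell. Cd209a had 58.8 and 61.9 CPM in KO LPS, 0 and 0 CPM in WT LPS, 83.9 CPM in KO vehicle and 258 CPM in WT vehicle, so its change came mostly from the WT libraries, where treatment and sex marks cannot be told apart. Among KO libraries alone it was at -0.45 (edgeR adjusted p = 0.73).

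**Figure D4:**
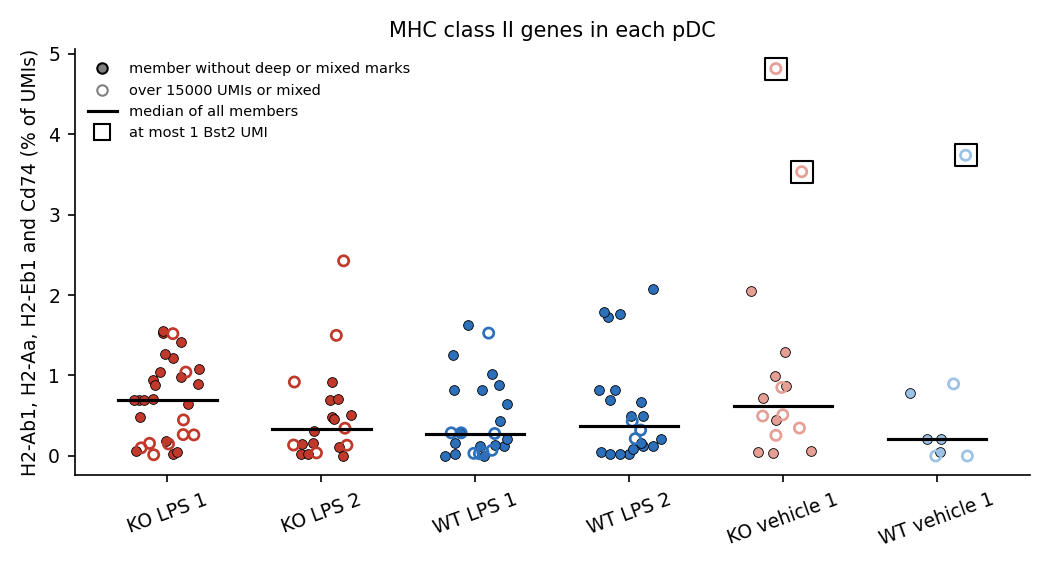
H2-Ab1, H2-Aa, H2-Eb1 and Cd74 as a percent of the UMIs of each pDC, by library, with bars at the median and boxes around members with at most 1 Bst2 UMI. The 3 boxed members, 2 in KO vehicle and 1 in WT vehicle, lie between 3.53% and 4.81%, above all 97 LPS members.

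Several other falls held without those 3 members. A fall had to pass the test with every LPS library below both vehicle libraries, an order shown by 18.6% of all tested genes, and 47 genes met the rule. Cd209d, a C-type lectin, had 99.3 and 45.0 CPM in KO LPS, 18.1 and 7.03 CPM in WT LPS, 336 CPM in KO vehicle and 438 CPM in WT vehicle. Vehicle levels were similar in both genotypes, and the LPS libraries spread more widely below them. The ratio was 0.131 (95% counting interval 0.0855 to 0.199) and the log2 change was -3.47 ± 0.43, edgeR adjusted p = 0.011. It was -3.30 ± 0.59, edgeR adjusted p = 0.000593 without deep or mixed droplets. Cmah, which makes the sialic acid Neu5Gc, had 3.68 and 11.3 CPM in KO LPS, 7.24 and 0 CPM in WT LPS, 159 CPM in KO vehicle and 155 CPM in WT vehicle, a ratio of 0.0364 (95% counting interval 0.0109 to 0.0968) (-4.58 ± 0.76, edgeR adjusted p = 0.024). Fosb, an immediate early gene, had 73.6 and 67.6 CPM in KO LPS, 29.0 and 21.1 CPM in WT LPS, 218 CPM in KO vehicle and 464 CPM in WT vehicle (-2.82 ± 0.31, edgeR adjusted p = 0.00816), and Khk, ketohexokinase, had 58.8 and 39.4 CPM in KO LPS, 32.6 and 21.1 CPM in WT LPS, 218 CPM in KO vehicle and 258 CPM in WT vehicle (-2.58 ± 0.39, edgeR adjusted p = 0.0182). Bmyc, a MYC family gene, had 33.1 and 61.9 CPM in KO LPS, 72.4 and 56.3 CPM in WT LPS, 294 CPM in KO vehicle and 489.7 CPM in WT vehicle (-2.73 ± 0.34, edgeR adjusted p = 0.0105). These 4, Cd209d and Fcrla kept the call without deep or mixed droplets. For Ckb and Xcr1 all vehicle UMIs lay in the 3 edge members, and for Epcam 59.1%. The remaining named falls were Xlr, Ypel3, Plbd1, Cd209a and H2-DMb1.

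Between genotypes under LPS, no gene passed the test. The edgeR fit called 0 of 4271 genes in either direction (0.0%), with 207 at an unadjusted p under 0.05, and DESeq2 called 0 with 33. The fitted KO minus WT log2 difference was -0.28 ± 0.24, edgeR adjusted p = 0.965 for Irf7, -0.31 ± 0.31, edgeR adjusted p = 0.965 for Isg15 and -0.02 ± 0.27, edgeR adjusted p = 1 for Ifitm3. The median over the 38 tested list genes was -0.07, with 22 lower in KO, and over all tested genes -0.02. Ifi27l2a was lower in both KO libraries than in both WT libraries, at -0.95 ± 0.17, edgeR adjusted p = 0.68. Leaving out WT LPS replicate 2 gave 7 genes higher and 19 lower in KO. Leaving out KO LPS replicate 1 or WT LPS replicate 1 gave 3 genes each, and leaving out deep droplets 5.

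No gene passed the test of a difference between genotypes in the LPS response. The edgeR interaction called 0 of 4271 genes (0.0%), with 245 at an unadjusted p under 0.05, and DESeq2 called 0 with 32. It rests on 1 vehicle library per genotype.

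With 1 library a side, KO vehicle against WT vehicle gives values and no test. Among 831 genes with at least 20 UMIs in 1 of these libraries, 96 had a counting interval of the ratio that excluded 1. Xist had 134 UMIs in KO vehicle and 0 in WT vehicle, and Ddx3x, an X-linked helicase gene, 26 and 0. Gzma (34 and 0) and the histone gene Hist1h1b (88 and 0) each came from 1 KO vehicle member, in both cases an edge member with at most 1 Bst2 UMI. The lowest ratios were in Ccr2, a chemokine receptor with 185 CPM in KO vehicle and 593 CPM in WT vehicle (ratio 0.311, 95% counting interval 0.165 to 0.584). Gas5, Srsf7 and Vcp were also among the lowest.

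The LPS response of pDC was then set against that of cDC2 (283 barcodes) and B cells (7527 barcodes) of the same libraries, in edgeR fits with library as a block. The cDC2 rule required at least 5 UMIs of H2-Ab1 and H2-Aa summed and 2 of Cd209a and Clec10a summed. It allowed no UMI of Siglech, Xcr1 or Clec9a. Clec10a was also among the genes furthest above the other barcodes in pDC. How many pDC without a Siglech UMI entered the cDC2 class was not tested. Against cDC2, 7 of 6371 genes responded more positively (0.11%) and 12 more negatively (0.188%), 0.298% in either direction. Against B cells, 81 of 11100 did so more positively (0.73%) and 117 more negatively (1.05%), 1.78% in either direction. Bst2 was the clearest identity gene among them. It had 3572 CPM under LPS and 3481 CPM under vehicle in pDC, 911 CPM under LPS and 193 CPM under vehicle in cDC2 and 829 CPM under LPS and 96.5 CPM under vehicle in B cells. The difference in log2 change was -2.43 ± 0.29, edgeR adjusted p = 0.00393 against cDC2 and -3.20 ± 0.28, edgeR adjusted p = 2e-25 against B cells. Within pDC its log2 change was -0.05 ± 0.20, edgeR adjusted p = 0.915.

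Ifi27l2a had the more positive change in pDC, with 2213 CPM under LPS and 468 CPM under vehicle in pDC and 1031 CPM under LPS and 738 CPM under vehicle in cDC2 (difference 1.79 ± 0.25, edgeR adjusted p = 0.0115). Ifitm3, by contrast, was lower in pDC than in cDC2 under both treatments, at 2810.1 CPM under LPS and 94.9 CPM under vehicle in pDC and 4876 CPM under LPS and 1878 CPM under vehicle in cDC2, with a larger fitted change in pDC (difference 3.63 ± 0.57, edgeR adjusted p = 0.0223). Sdc4, a syndecan, had 668 CPM under LPS and 146 CPM under vehicle in pDC and 1694 CPM under LPS and 4.43 CPM under vehicle in cDC2 (difference -6.62 ± 0.72, edgeR adjusted p = 0.00316). Ccl4 had 3219 CPM under LPS and 418 CPM under vehicle in pDC, 1858 CPM under LPS and 18.8 CPM under vehicle in cDC2 and 1288 CPM under LPS and 20.2 CPM under vehicle in B cells, so the vehicle level was already higher in pDC and the difference in change was -4.27 ± 0.69, edgeR adjusted p = 0.0235 against cDC2 and -3.27 ± 0.33, edgeR adjusted p = 5.45e-19 against B cells. None of the differences from cDC2 named here kept its call when each library was left out in turn.

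Against B cells, Kdr and Cd82 had the most positive differences of the named genes. Kdr, the VEGF receptor 2 gene, had 199 CPM under LPS and 19.0 CPM under vehicle in pDC and 2.43 CPM under LPS and 14.0 CPM under vehicle in B cells (difference 5.77 ± 0.72, edgeR adjusted p = 4.48e-12). It was detected in 38 of 97 LPS members and 2 of 24 vehicle members at 2000 UMIs each, against 0.257% of LPS B cells and 0.804% of vehicle B cells. Cdh5, another endothelial gene, had 206 and 152 CPM in KO LPS, 416 and 162 CPM in WT LPS, 16.8 CPM in KO vehicle and 77.3 CPM in WT vehicle in pDC, while Pecam1 had 51.5 and 45.0 CPM in KO LPS, 101 and 21.1 CPM in WT LPS, 67.1 CPM in KO vehicle and 51.6 CPM in WT vehicle. The log2 change of Cdh5 was 2.70 ± 0.68, edgeR adjusted p = 0.0713 on all members. It was 5.09 ± 1.04, edgeR adjusted p = 0.00228 without deep or mixed droplets. Before thinning, 62 of 97 LPS members held a UMI of Kdr, 71 one of Cdh5 and 3 one of Cldn5, also an endothelial gene. The part of endothelial RNA in the Kdr level was not tested. Cd82 had 356 CPM under LPS and 12.7 CPM under vehicle in pDC and 45.8 CPM under LPS and 44.1 CPM under vehicle in B cells (difference 4.72 ± 0.69, edgeR adjusted p = 1.16e-08). Hhex, a transcription factor of blood progenitors, had 88.7 CPM under LPS and 133 CPM under vehicle in pDC and 11.0 CPM under LPS and 115 CPM under vehicle in B cells (difference 2.97 ± 0.51, edgeR adjusted p = 2.93e-06). Fmnl2, a formin of the actin cytoskeleton, had 209.7 CPM under LPS and 94.9 CPM under vehicle in pDC and 60.7 CPM under LPS and 3.71 CPM under vehicle in B cells (difference -3.20 ± 0.58, edgeR adjusted p = 1.49e-05). The calls for Kdr, Cd82, Hhex, Fmnl2, Ccl4 and Bst2 against B cells held without each library in turn.

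**Figure D5:**
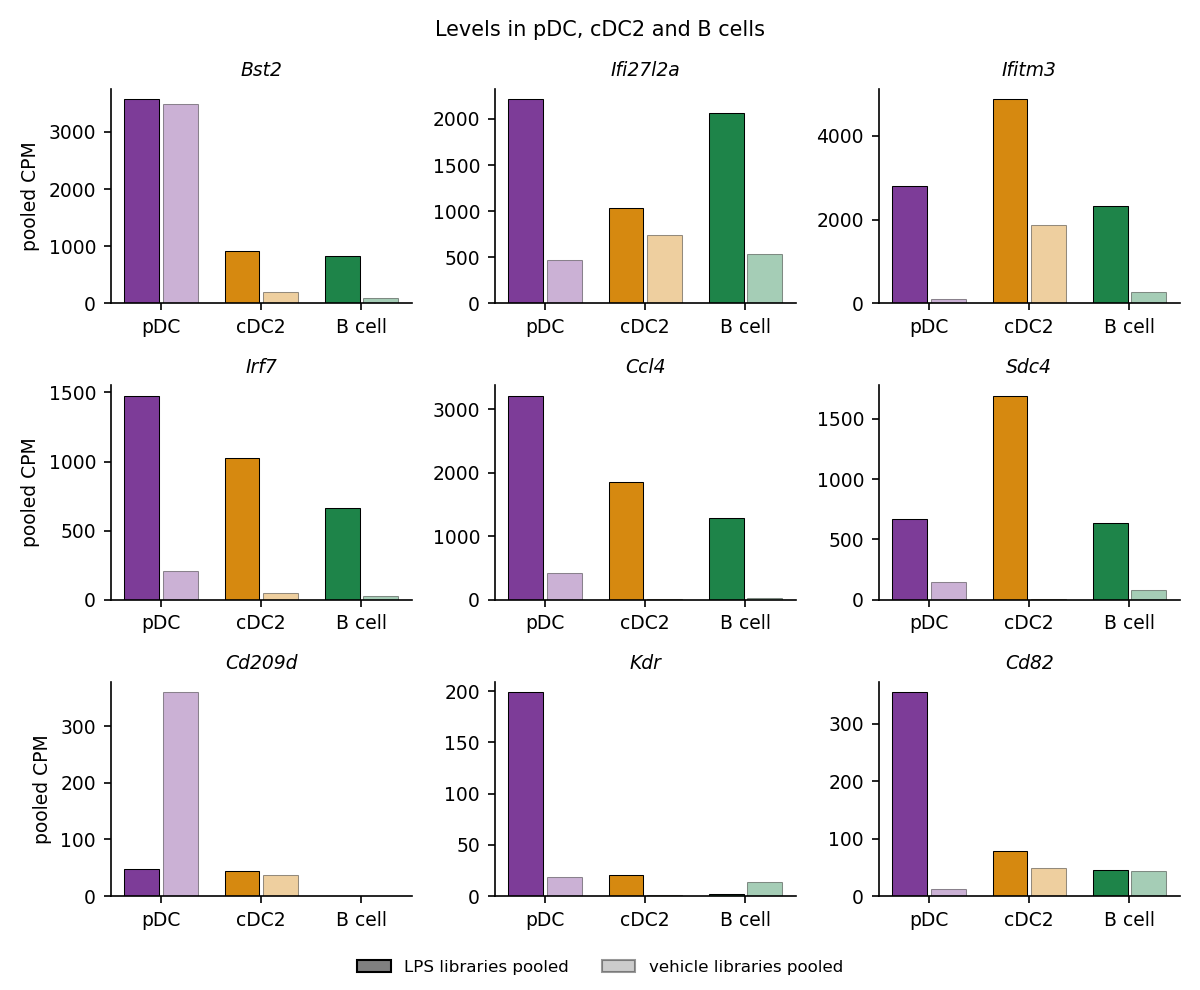
Pooled CPM of 9 genes in pDC, cDC2 and B cells, with dark bars for the LPS libraries and light bars for the vehicle libraries, each on its own linear axis. Bst2 in pDC is at 3572 CPM under LPS and 3481 CPM under vehicle while it is higher under LPS in cDC2 and B cells, and Cd209d is high in vehicle pDC alone among these bars.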

How the data were processed

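The deposited files are filtered matrices of raw UMI counts per gene and barcode, with Cell Ranger 6.1.0, mm10, Seurat 4.1.0 and R 4.1.3 named in the submitters' processing notes. The 6 libraries held 55361477 to 115225284 UMIs. A quality filter (200 or more genes detected, mitochondrial share up to 10%) kept 61736 of 64428 barcodes.

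pDC were found by the marker rule in the report. The members and gene lists were chosen with earlier results of these data known. Genes of the rule were not tested. Counts were summed per library and tested with edgeR 4.0.16 in R 4.3.3 (quasi-likelihood test after TMM scaling, with genes filtered on low counts, a group mean for each of the 4 groups, 2 residual degrees of freedom, Benjamini-Hochberg adjustment over all genes tested, threshold 0.05). DESeq2 1.42.0 was the other tool. A vehicle group is 1 library and is assumed to vary like the LPS groups. Shares used exact permutation tests (SciPy 1.17.1). Intervals are exact at 95% and cover counting error only. A gene at 0 UMIs in the vehicle libraries is given as "at least", with 3 UMIs over both libraries as the floor. The fitted log2 change of a gene at 0 in a library depends on the prior count, so library levels or ratios of pooled CPM stand beside it in the main results.

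Droplets over 15000 UMIs, or with transcripts of other cell types, were left out in alternatives chosen after the data were seen, as were leaving out Y-linked droplets and the contrast among KO libraries alone. Genes were named by rule: the 15 largest rises and falls past the threshold with at least 100 CPM, no overlap between treatments and, for rises, a level at least that of the other barcodes, then up to 6 per list by p, up to 8 each way per class comparison, and fixed genes of interest. Predicted, ribosomal and mitochondrial genes were left out. The fit was tested on simulated counts with 200 changed genes, and it missed nearly all 2-fold changes and many 4-fold changes there. A gene that did not pass can therefore still differ by 4-fold. Promoters are from RefSeq (GRCm38.p6). Mx1 and Mx2 were not analysed here.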

Additional observations from a re-analysis of the deposited data

Results flagged for a closer look

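The genes below were singled out because the LPS response of pDC differed from that of another cell class of the same libraries in a test of the difference itself (edgeR, pDC log2 change minus the other class's). Against cDC2 the difference was 4.95 for Smim5, 3.63 for Ifitm3, 3.11 for Glipr1 and 1.79 for Ifi27l2a. It was -6.62 for Sdc4, -4.49 for Rgs1, -4.27 for Ccl4, -4.09 for Arl5c, -3.84 for Cd209d, -3.81 for Basp1, -2.79 for Sp140 and -2.43 for Bst2. Each of these 12 calls was lost without at least 1 of the 6 libraries. Smim5, a pDC marker gene, had 394 CPM under LPS and 418 CPM under vehicle in pDC and 0.745 CPM under LPS and 37.6 CPM under vehicle in cDC2.

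Against B cells the difference was 5.77 for Kdr, 4.72 for Cd82, 3.72 for Treml2, 3.61 for Cited2, 3.57 for Tagap, 3.21 for Cd8a, 2.98 for Cd300c and 2.97 for Hhex. It was -4.69 for Ifi205, -3.78 for Aif1, -3.57 for Dctpp1, -3.47 for C1qbp, -3.40 for Cd209d, -3.27 for Ccl4, -3.20 for Bst2 and -3.20 for Fmnl2. Ifi205 and Aif1 turned their sign without deep or mixed droplets, to 3.83 and 6.26. Cd8a, a surface protein also carried by some mouse dendritic cells, had 151 and 61.9 CPM in KO LPS, 61.5 and 464 CPM in WT LPS, 33.6 CPM in KO vehicle and 103 CPM in WT vehicle in pDC and 1.68 CPM under LPS and 6.02 CPM under vehicle in B cells. Cd300c had 261 and 287 CPM in KO LPS, 221 and 232 CPM in WT LPS, 201 CPM in KO vehicle and 258 CPM in WT vehicle in pDC, where the treatments overlapped, and 0.0935 CPM under LPS and 0.815 CPM under vehicle in B cells.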

How the results depend on the processing

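Counts of called genes depended on the vehicle libraries and on which droplets were kept. For LPS against vehicle (173 higher, 61 lower) edgeR gave 543 higher without a low-count filter, 109 higher and 21 lower under the stricter rule (3 UMIs in place of 2), 281 and 150 without deep droplets, 36 lower without the second set of mixed droplets and 27 and 1 among KO libraries alone. DESeq2 gave 25 lower. The first set of mixed droplets also counted any UMI of Xcr1, Clec9a, Pecam1 or Cdh5 and over 3 of Lyz2, and the second set is that of the report. Without the first set 314 genes could be tested, with 0 and 0. Leaving out each library gave 15 to 442 higher and 2 to 119 lower: 86 and 18 without KO LPS replicate 2, 442 and 119 without WT LPS replicate 2, 15 and 2 without the KO vehicle library and 33 and 10 without the WT vehicle library. Without deep or mixed droplets 222 rose and 45 fell, of which 120 and 25 were also called on all members.

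KO LPS against WT LPS (0 and 0) gave 34 and 31 without a filter, 4 and 1 without deep droplets, 6 and 2 without the second set of mixed droplets, 1 higher without both, and 0 to 7 higher and 0 to 19 lower without each library. The numbers of the LPS replicates share only a number (r = -0.019 between same-numbered deviations), and the replicate block gave 0 and 0. The difference in response gave 1 and 9 without a filter, 2 lower without deep droplets, 1 lower without the second set, 2 lower without both, and 0 to 2 lower without each library.

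Against cDC2 (7 and 12) there were 74 and 57 without a filter, 100 and 47 without deep or mixed droplets, and 0 to 10 and 0 to 20 without each library. Against B cells (81 and 117) 55 were lower without deep or mixed droplets, and 22 to 94 higher and 23 to 131 lower without each library.

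Of 84 named genes called under LPS, 2 kept the call in every alternative run. Reversed signs were Cst3 (0.015 and 0.049), H2-Aa (0.077 and 0.17) and H2-Ab1 (0.068 and 0.16) without the second mixed set and without deep or mixed droplets, H2-Aa at 2.74 without the first mixed set, H2-Ab1 at 0.32 and Epcam at 0.11 under the stricter rule, and Xist at -0.50 and Ddx3x at -0.11 without the WT vehicle library, or -0.66 and -0.16 among KO libraries alone. Without the KO vehicle library Xist was at 10.2 and Ddx3x at 8.19. Against B cells and without deep or mixed droplets, Aif1 was at 6.26 and Ifi205 at 3.83. The cause was not tested. The difference in response between genotypes could not be fitted without either vehicle library. The share difference stayed positive, at 0.28 to 1.55 without each library for LPS against vehicle and 0.10 to 0.45 for KO against WT. The 38797 pDC UMIs of WT vehicle limit what vehicle levels can show.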
